A study of Mus musculus with 15 samples.

Results

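The genes described here are those of the mouse major histocompatibility complex (MHC) and of antigen presentation. They were every symbol in the deposited table that begins with H2-, apart from H2-Ke2 and H2-Ke6, which encode no MHC molecule, together with B2m, Cd74, Ciita, Nlrc5, Tap1, Tap2, Tapbp, Erap1, Cd1d1 and Mr1. This gave 42 of the 24030 symbols in the table. The class I side held 31 of them: 23 heavy chain genes, 5 partners of the heavy chain, the regulator Nlrc5 and the class I-like genes Cd1d1 and Mr1. Among the heavy chain genes, H2-K2 and H2-T-ps are annotated as pseudogenes, and H2-Q5, H2-T10 and H2-Bl as polymorphic pseudogenes. The class II side held 11: 4 chain genes, 6 accessory genes and the regulator Ciita. In all, 35 of the 42 passed the filter on low counts, 24 on the class I side and 11 on the class II side, among 15083 genes that passed. The other 7, H2-Bl, H2-M1, H2-M11, H2-M5, H2-Q1, H2-Q2 and H2-T3, had at most 3 counts in any library.

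MHC class I molecules stand on nearly every nucleated cell and show CD8 T cells peptides from proteins made inside that cell. The heavy chain folds with beta-2 microglobulin, and peptides cut by the proteasome reach it through the TAP transporter, some after further trimming by ERAP1 in the endoplasmic reticulum. MHC class II molecules are made mainly by macrophages, dendritic cells and B cells, and show CD4 T cells peptides from material the cell has taken up. Interferon gamma raises both sides, class I through NLRC5 and class II through CIITA. In fat, resident macrophages are a known source of class II transcripts.

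The tissue was brown fat, the depot that burns lipid to make heat, sampled as bulk RNA in 15 libraries. Knockout mice (KO) lacked DJ-1, the redox-sensitive protein encoded by Park7, in brown fat, and controls (WT) were flox mice without that deletion. Both had been housed for 8 weeks either at 29 °C, close to thermoneutrality for a mouse, or at room temperature, which loads a mouse with mild cold. There were 3 KO and 4 WT libraries at 29 °C, and 4 KO and 4 WT libraries at room temperature. The Cre driver behind the deletion, the strain and MHC haplotype, the sex and the age are not given in the sources used here. MHC genes vary between strains, and reads were counted on the mm10 reference, so in mice of another haplotype than the reference the counts of H2 genes could be too low or shifted between neighbours. The labels name the replicates as separate samples without saying that each is a separate mouse, and the p-values then cover only the spread among these samples, which may be technical. Levels are in CPM (counts after TMM scaling of the library sizes), and differences are log2 fold changes ± SE from edgeR's quasi-likelihood test, with p adjusted over all genes tested by the Benjamini-Hochberg method. "Rose", "fell", "higher" and "lower" calls use an adjusted p under 0.05.

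Park7 averaged 31.7 ± 5.46 CPM in KO and 118 ± 11 CPM in WT at 29 °C, and 28.2 ± 4.03 CPM in KO and 109.9 ± 1.65 CPM in WT at room temperature (SD; n = 3, 4, 4 and 4). Total counts per library ran from 23977448 to 38800967, the highest being KO at 29 °C replicate 1, which also gave the highest level of many of the genes below. The genes used as brown adipocyte markers were Ucp1, Cidea, Adipoq, Plin1, Fabp4 and Pparg. Their sum ranged over the libraries from 9696 CPM in WT at 29 °C to 25822 CPM in KO at room temperature, so adipocyte transcripts were abundant in every library. Skeletal muscle transcripts reached 466 and 1419 CPM in KO at 29 °C replicates 2 and 3 and 1086 CPM in WT at 29 °C replicate 2, against at most 11.1 CPM in the other 12 libraries. KO at room temperature replicates 2 and 4 stood apart from replicates 1 and 3 in brown adipocyte markers, with sums of 17959 and 16328 CPM, against 25822 and 22082 CPM. The share of mitochondrial genes was 25.8 to 26.9% in KO against 30.2 to 41.6% in WT at 29 °C, and lay between 22.7% and 27.4% at room temperature, and the part of this in the results was not tested. In bulk tissue, fewer cells of a type and less RNA per cell cannot be told apart.

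Most H2 genes sit in 1 block of chromosome 17, with the class II genes between the class I gene H2-K1 and the class I H2-D, H2-Q, H2-T and H2-M genes (GRCm38). H2-K1 lies at 33996017 to 34000347 and H2-Aa at 34282744 to 34287823 on the minus strand, and H2-Eb1 at 34305867 to 34316674, H2-D1 at 35262730 to 35267499 and H2-Q10 at 35470089 to 35474563 on the plus strand. B2m lies apart at 122147686 to 122153083 on chromosome 2, and Cd1d1 at 86995834 to 86999441 on chromosome 3. RefSeq promoters of GRCm38.p6 were matched for 30 members. The stretch upstream of the start site is shown for heavy chain genes that rose at 29 °C, for H2-Q10, which fell, and for a pair of class II chains, because class I and class II promoters carry different short sequence blocks. Capitals mark exact matches to GGGGATTCCC and TTTCACTTCT, the letters that H2-K1 carries at its kappaB-type and interferon-response elements, and to CCAAT, read on either strand, in which case the other strand shows as ATTGG.
H2-K1: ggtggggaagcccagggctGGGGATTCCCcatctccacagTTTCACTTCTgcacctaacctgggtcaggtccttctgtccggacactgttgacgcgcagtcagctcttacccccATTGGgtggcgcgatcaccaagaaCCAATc
H2-D1: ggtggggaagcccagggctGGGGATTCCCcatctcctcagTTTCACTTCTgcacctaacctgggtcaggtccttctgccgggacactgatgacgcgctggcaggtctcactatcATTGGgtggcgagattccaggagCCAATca
H2-Q6: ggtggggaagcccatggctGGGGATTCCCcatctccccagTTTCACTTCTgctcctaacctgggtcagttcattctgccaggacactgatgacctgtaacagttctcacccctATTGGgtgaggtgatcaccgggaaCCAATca
H2-Q4: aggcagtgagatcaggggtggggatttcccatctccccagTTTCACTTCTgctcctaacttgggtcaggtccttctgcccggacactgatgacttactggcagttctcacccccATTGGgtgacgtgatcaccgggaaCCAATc
H2-Q10: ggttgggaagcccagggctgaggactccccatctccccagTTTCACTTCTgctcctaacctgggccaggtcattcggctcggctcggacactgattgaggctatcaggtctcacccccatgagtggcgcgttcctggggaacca
H2-Aa: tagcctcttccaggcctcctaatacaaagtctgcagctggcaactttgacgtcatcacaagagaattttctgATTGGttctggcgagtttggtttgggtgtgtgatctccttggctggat
H2-Eb1: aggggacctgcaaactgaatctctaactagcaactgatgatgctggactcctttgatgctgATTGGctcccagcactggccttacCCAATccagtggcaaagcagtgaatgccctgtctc

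These stretches are chr17:34000334-34000477 on the minus strand for H2-K1, chr17:35262904-35263047 on the plus strand for H2-D1, chr17:35424658-35424801 on the plus strand for H2-Q6 and chr17:35379424-35379567 on the plus strand for H2-Q4. They are chr17:35469894-35470037 on the plus strand for H2-Q10, chr17:34287824-34287943 on the minus strand for H2-Aa and chr17:34305747-34305866 on the plus strand for H2-Eb1. Positions in the window GGGGATTCCCC of H2-K1 are counted from 1 at its 5′ end. H2-D1 and H2-Q6 carry that window unchanged, H2-Q4 differs by C8T, and H2-Q10 differs by G2A and T6C. H2-Q10 is also the heavy chain gene of this group with no CCAAT in the 250 bases before its start. Over 32851 mouse promoters, 0.0852% hold GGGGATTCCC, 0.131% hold TTTCACTTCT and 33.8% hold CCAAT in those 250 bases, both strands read. H2-T22, H2-T23, H2-M2, H2-M9 and H2-T-ps are heavy chain genes that rose with temperature in both genotypes. They hold neither GGGGATTCCC nor TTTCACTTCT in those 250 bases, and each holds CCAAT. The same is true of B2m and Tap1, which also rose in both genotypes. H2-M3, another such heavy chain gene, holds TTTCACTTCT and CCAAT. A link between these letters and the changes with temperature was not tested. A match describes letters in a window and does not show that a factor binds there.

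Warm housing gave the broadest difference in these genes. In WT, 25 of the 35 tested members were higher and 3 were lower at 29 °C than at room temperature, where 35.9% of all genes tested were higher, 32.8% were lower and 68.8% were called in either direction. The median log2 change was 1.39 over the members and 0.06 over all genes. On the class I side 17 of 24 rose and 3 fell, with a median of 1.28, and on the class II side 8 of 11 rose and none fell, with a median of 1.45. Cd1d1, Erap1 and H2-Q10 were the 3 that fell.

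In KO, 29 of 35 members were higher and 3 were lower at 29 °C than at room temperature, against 24.3% higher, 21.7% lower and 46% called among all genes. The median log2 change was 1.53 over the members and 0.04 over all genes. All 11 tested genes of the class II side rose, with a median of 1.78, and the class I side had 18 higher and 3 lower of 24, with a median of 1.41. Cd1d1, H2-Q10 and Mr1 fell in KO. Without the 3 libraries with muscle transcripts, which leaves 1 KO library at 29 °C that is assumed to vary like the other groups, 24 were higher and 1 was lower in KO. Of these 25, 7 were on the class II side, and H2-DMb2, H2-Oa and H2-Ob were among those no longer called. With scaling by library totals alone, an alternative added after the data were seen, the median of all genes moved to 0.41 in WT and 0.35 in KO. The calls were then 30 higher and 2 lower in WT, and 31 higher and 2 lower in KO.

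**Figure D1:**
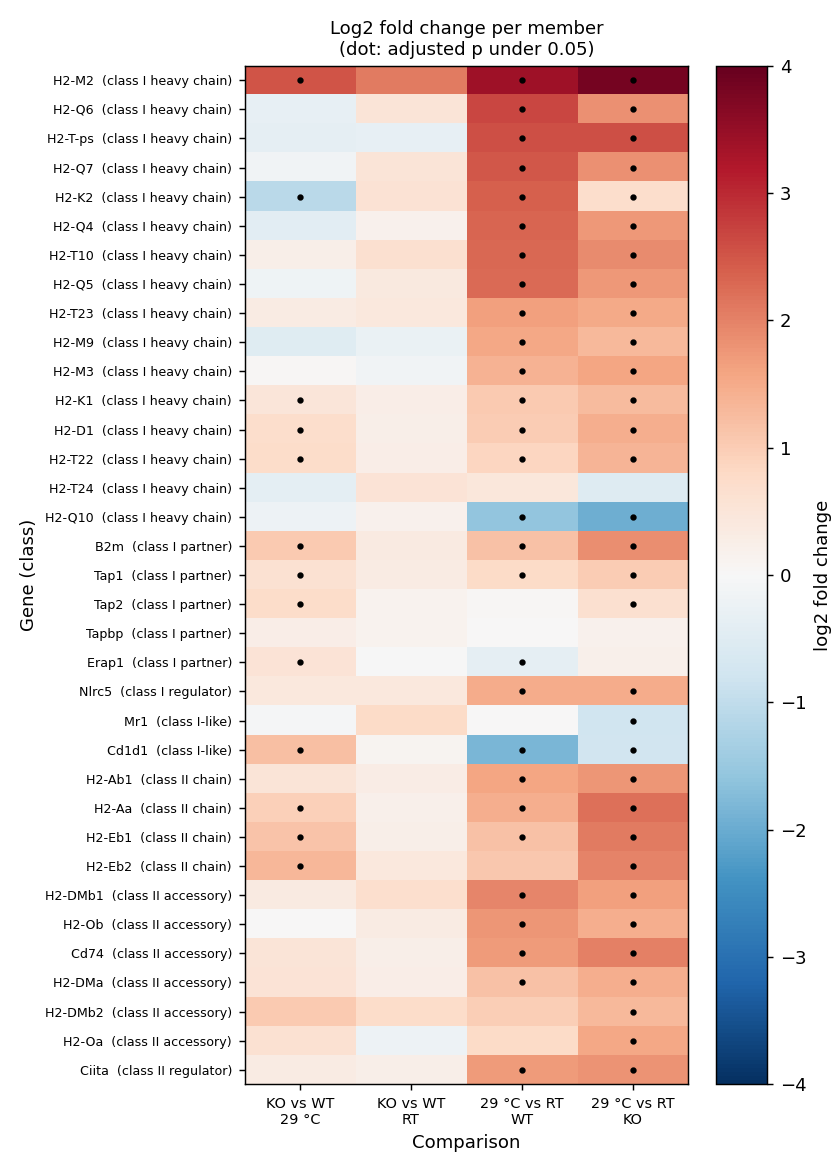
Log2 fold change of the 35 tested members (rows, by class and then by the change in WT) in 4 comparisons (columns), red for higher and blue for lower in the first-named group, with a dot at an adjusted p under 0.05. Both columns of 29 °C against room temperature are mostly red with dots, H2-Q10 and Cd1d1 are blue in them, and the column of KO against WT at room temperature holds no dot.

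H2-K1 and H2-D1 encode the classical class I heavy chains, which present peptides to CD8 T cells. H2-K1 measured 1149.6, 647 and 918 CPM in KO and 611, 663, 602 and 729 CPM in WT at 29 °C, and 343, 426, 351 and 389 CPM in KO and 326, 272, 359 and 294 CPM in WT at room temperature. Every 29 °C library lay above every room temperature library. The log2 difference between temperatures was 1.06 ± 0.15 in WT (adjusted p = 7.8e-06) and 1.26 ± 0.15 in KO (adjusted p = 1.2e-05).

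H2-D1 measured 1370, 827 and 1111 CPM in KO and 695, 744, 579.8 and 703 CPM in WT at 29 °C, and 329.5, 457, 373 and 439 CPM in KO and 357, 283, 398 and 313 CPM in WT at room temperature. The temperatures again did not overlap, with log2 differences of 1.01 ± 0.15 in WT (adjusted p = 2.1e-05) and 1.46 ± 0.16 in KO (adjusted p = 5.2e-06).

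In the Q region the nonclassical heavy chain genes H2-Q4, H2-Q5, H2-Q6 and H2-Q7, the last a Qa-2 antigen, rose as well. H2-Q5 is annotated as a polymorphic pseudogene. H2-Q4 measured 92.8, 55.4 and 93.2 CPM in KO and 99.3, 105, 88.4 and 142 CPM in WT at 29 °C, and 17.7, 27.4, 27.6 and 24.8 CPM in KO and 21.2, 14.3, 31.7 and 19.4 CPM in WT at room temperature. In WT the log2 difference was 2.33 ± 0.25 for H2-Q4 (adjusted p = 1.8e-06), 2.28 for H2-Q5, 2.67 for H2-Q6 and 2.48 for H2-Q7. In KO these were 1.72, 1.74, 1.82 and 1.84. All 8 changes were called, and each was larger than those of H2-K1 and H2-D1 in the same genotype, a comparison between genes that was not tested. Genes of this region share sequence: 5.99% of the 150-base stretches of H2-Q6, 5.9% of those of H2-Q7 and 3.43% of those of H2-Q10 occur in another gene, so the estimated counts of neighbours may trade reads.

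In the T and M regions, H2-T22, whose product is recognised by gamma delta T cells, averaged 178 ± 48.4 CPM in KO and 106 ± 8.35 CPM in WT at 29 °C, and 69.7 ± 20.3 CPM in KO and 58.5 ± 6.25 CPM in WT at room temperature (SD). Its log2 difference with temperature was 0.86 ± 0.18 in WT (adjusted p = 6.1e-04) and 1.35 ± 0.19 in KO (adjusted p = 6.0e-05). H2-T23 encodes Qa-1, a ligand of inhibitory NK cell receptors. It averaged 72.5 CPM in KO and 58.2 CPM in WT at 29 °C, and 25.2 CPM in KO and 18.6 CPM in WT at room temperature, with log2 differences of 1.64 in WT and 1.53 in KO, both called. H2-M3, which presents formylated peptides, averaged 6.85 CPM in KO and 6.69 CPM in WT at 29 °C, and 2.31 CPM in KO and 2.54 CPM in WT at room temperature, and rose in both genotypes.

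H2-Q10 was the 1 heavy chain gene of 16 tested that fell with temperature, in both genotypes. It encodes a secreted class I molecule best known as a liver product. It measured 116, 66.7 and 58 CPM in KO and 150.3, 102, 49 and 64.5 CPM in WT at 29 °C, and 279.8, 319, 254 and 383 CPM in KO and 219.6, 315, 258 and 298 CPM in WT at room temperature. No 29 °C library reached the lowest room temperature library. The log2 difference was -1.57 ± 0.32 in WT (adjusted p = 6.9e-04) and -1.94 ± 0.36 in KO (adjusted p = 7.8e-04). Without the 3 libraries with muscle transcripts, which leaves 1 KO library at 29 °C, the KO value was -1.49 (adjusted p = 0.0628).

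The makeup of the class I heavy chain pool therefore differed between temperatures. H2-Q10 made up 3.2 ± 0.761% of summed heavy chain CPM in KO and 5.04 ± 2.37% in WT at 29 °C, and 25 ± 2.94% in KO and 26.3 ± 5.45% in WT at room temperature (SD). The highest share at 29 °C, 8.25% in a WT library, lay below the lowest at room temperature, 21.4% in a WT library.

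The partners of the heavy chain moved unevenly. B2m, the light chain of all class I molecules, measured 1607, 832 and 1097 CPM in KO and 508, 604, 588 and 568 CPM in WT at 29 °C, and 268, 361, 338 and 333 CPM in KO and 276, 210.4, 309.6 and 219 CPM in WT at room temperature. The temperatures did not overlap in either genotype. B2m rose by 1.16 ± 0.17 in WT (adjusted p = 2.2e-05) and 1.86 ± 0.19 in KO (adjusted p = 2.7e-06) on the log2 scale. Per kilobase of exon it was the most abundant of the genes compared, with 1370.1 CPM per kb in KO at 29 °C, against 427 for H2-D1, 308 for H2-K1 and 183 for Cd74 in the same libraries.

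Tap1, a subunit of the peptide transporter, rose with temperature by 0.75 ± 0.22 in WT (adjusted p = 0.00685) and 1.01 ± 0.23 in KO (adjusted p = 0.00257). Tap2, the other subunit, rose in KO by 0.64 ± 0.13 (adjusted p = 9.7e-04) and had a log2 difference of 0.05 ± 0.12 in WT (adjusted p = 0.719). Erap1, the peptidase that trims peptides in the endoplasmic reticulum, fell by 0.35 in WT (adjusted p = 0.00562), and with scaling by library totals this difference was 0 (adjusted p = 0.984). Tapbp, the tapasin that bridges TAP and the heavy chain, was called in neither genotype.

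Nlrc5, the class I transactivator, measured 35.5, 25.1 and 28.2 CPM in KO and 19, 22.6, 24.8 and 21.7 CPM in WT at 29 °C, and 6.85, 9.95, 15.5 and 9.87 CPM in KO and 9.51, 5.93, 10.5 and 5.76 CPM in WT at room temperature. Its log2 rise with temperature was 1.47 ± 0.24 in WT (adjusted p = 6.3e-05) and 1.49 ± 0.25 in KO (adjusted p = 2.4e-04).

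Cd1d1 encodes the class I-like molecule that presents lipids to NKT cells, and adipocytes are among the cells known to express it. It measured 132, 109 and 88.4 CPM in KO and 51.9, 50.7, 47.4 and 41.4 CPM in WT at 29 °C, and 199, 188, 185 and 173 CPM in KO and 166, 179, 185 and 157 CPM in WT at room temperature. The 4 WT libraries at 29 °C were the lowest of all, the 3 KO libraries at 29 °C came next, and all room temperature libraries lay above both. Cd1d1 fell with temperature by 1.84 on the log2 scale in WT (SE 0.11, adjusted p = 1.6e-09) and by 0.76 in KO (SE 0.12, adjusted p = 1.1e-04). Brown adipocyte markers were also lowest in WT at 29 °C: their sum averaged 17583 ± 1752 CPM in KO and 10026 ± 456 CPM in WT at 29 °C, and 20548 ± 4269 CPM in KO and 22434 ± 501 CPM in WT at room temperature (SD). Of these 6 markers, 6 fell with temperature in WT and 1 in KO, where 32.8% and 21.7% of all genes fell. In KO against WT at 29 °C 4 of them were higher, against 24.7% of all genes. The part of these markers in the Cd1d1 differences was not tested. Of the 150-base stretches of Cd1d1, 4.64% also occur in Cd1d2. Mr1, which presents vitamin metabolites to MAIT cells, measured 5.9, 5.45 and 5.27 CPM in KO and 6, 7.27, 5.57 and 4.16 CPM in WT at 29 °C, and 6.16, 12.1, 6.45 and 14.2 CPM in KO and 5.79, 5.2, 5.16 and 6.54 CPM in WT at room temperature. Its fall in KO, -0.81 ± 0.26 (adjusted p = 0.018), rested on the high KO replicates 2 and 4 at room temperature, and without them it was -0.19 (adjusted p = 0.489).

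**Figure D2:**
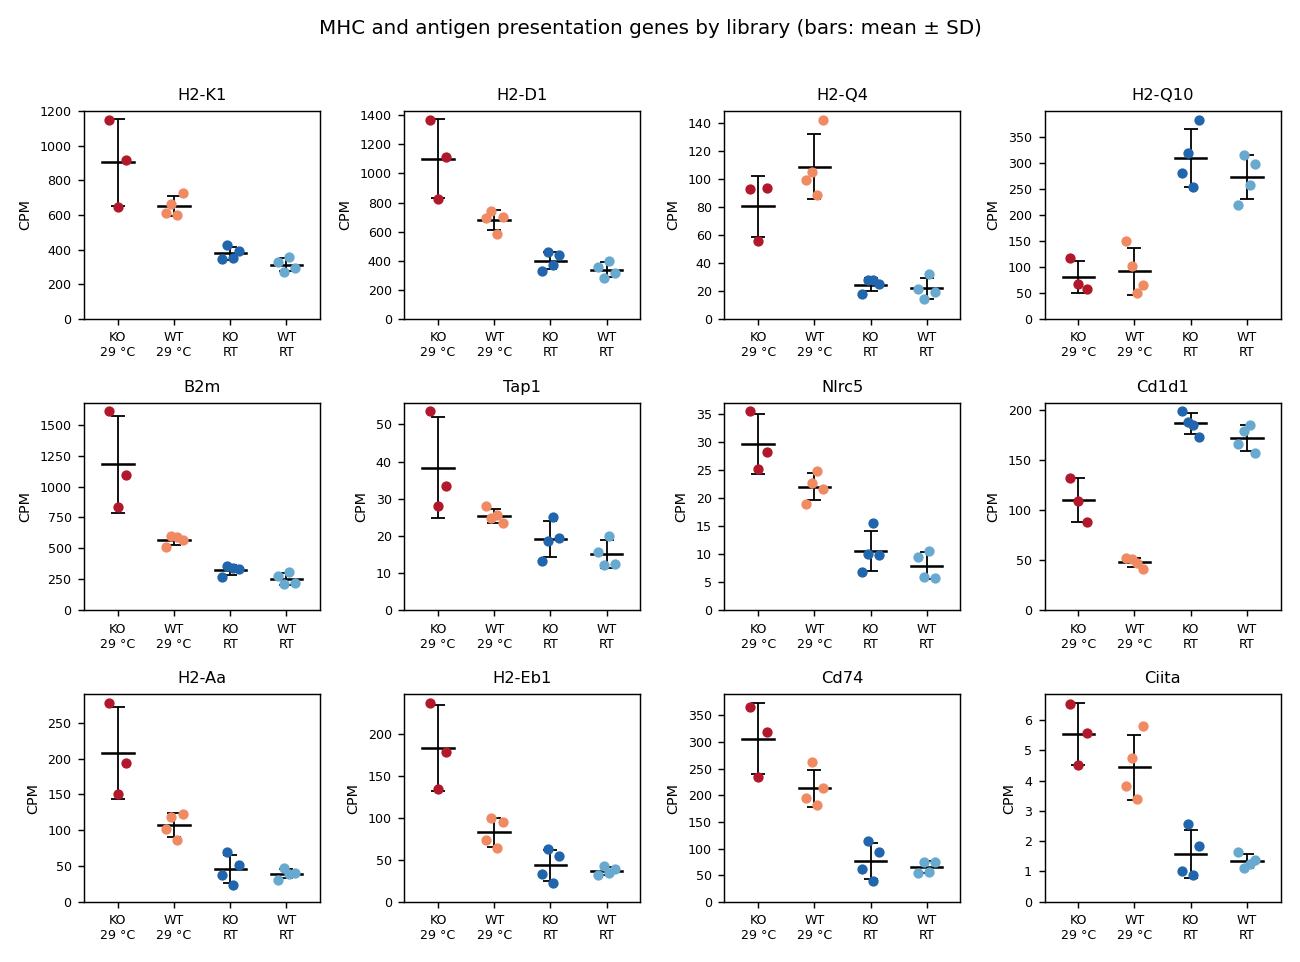
Level in CPM (vertical axes, from 0) of 12 members in each library, by group along the horizontal axes (RT, room temperature), with 1 point per library and bars for the mean ± SD. H2-K1, H2-D1, H2-Q4, B2m, H2-Aa, H2-Eb1 and Cd74 stand higher at 29 °C, H2-Q10 and Cd1d1 stand lower, and B2m, Cd1d1, H2-Aa and H2-Eb1 separate KO from WT at 29 °C.

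On the class II side, H2-Aa and H2-Ab1 encode the chains of the I-A molecule, and H2-Eb1 encodes the beta chain of I-E. H2-Aa measured 277, 151 and 194 CPM in KO and 102, 119, 86.4 and 123 CPM in WT at 29 °C, and 36.9, 70.1, 23.6 and 51.3 CPM in KO and 31, 46.9, 39.1 and 40.2 CPM in WT at room temperature. Every 29 °C library lay above every room temperature library. The log2 rise was 1.45 ± 0.29 in WT (adjusted p = 5.0e-04) and 2.19 ± 0.3 in KO (adjusted p = 8.5e-05).

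H2-Eb1 measured 237, 135 and 179 CPM in KO and 73.3, 100.1, 63.8 and 94.7 CPM in WT at 29 °C, and 33.7, 63.1, 22.5 and 54.1 CPM in KO and 31.5, 42.3, 34.1 and 39 CPM in WT at room temperature. It rose by 1.18 ± 0.28 in WT (adjusted p = 0.00223) and 2.08 ± 0.3 in KO (adjusted p = 1.2e-04). H2-Ab1 measured 156, 86 and 122 CPM in KO and 77.9, 97.4, 72.7 and 93.2 CPM in WT at 29 °C, and 26.7, 56.3, 18.5 and 40.1 CPM in KO and 22.7, 33.3, 27.2 and 31 CPM in WT at room temperature. It did not overlap between temperatures either, and rose by 1.58 ± 0.29 in WT (adjusted p = 3.0e-04) and 1.78 ± 0.31 in KO (adjusted p = 4.4e-04).

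Cd74, the invariant chain that guards the class II groove until peptide loading, measured 366, 235 and 319 CPM in KO and 195, 262, 182 and 213 CPM in WT at 29 °C, and 60.7, 114, 39.2 and 93.8 CPM in KO and 54.7, 75.5, 56.7 and 73.9 CPM in WT at room temperature. Its rise with temperature was 1.71 ± 0.28 in WT (adjusted p = 9.3e-05) and 2 ± 0.29 in KO (adjusted p = 1.2e-04). Ciita, the class II transactivator, measured 6.54, 4.51 and 5.58 CPM in KO and 3.82, 4.75, 3.39 and 5.81 CPM in WT at 29 °C, and 1.03, 2.57, 0.886 and 1.83 CPM in KO and 1.65, 1.12, 1.26 and 1.39 CPM in WT at room temperature. It rose by 1.71 ± 0.29 in WT (adjusted p = 6.2e-05) and 1.81 ± 0.3 in KO (adjusted p = 1.5e-04), so the regulators of both sides were higher at 29 °C.

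The editors of class II peptide loading followed at lower levels. H2-DMa, a chain of the molecule that exchanges peptides, measured 15.1, 10 and 12.9 CPM in KO and 8.71, 8.9, 6.54 and 10.3 CPM in WT at 29 °C, and 3.28, 6.32, 3.18 and 5.61 CPM in KO and 3.31, 4.51, 3.44 and 4.16 CPM in WT at room temperature. Its partner H2-DMb1 measured 19.2, 8.68 and 13.6 CPM in KO and 9.99, 11.5, 8.68 and 12.6 CPM in WT at 29 °C, and 2.59, 7.08, 3.06 and 4.88 CPM in KO and 2.98, 2.32, 2.35 and 3.33 CPM in WT at room temperature. Both rose with temperature in both genotypes, H2-DMa by 1.16 in WT and 1.46 in KO, and H2-DMb1 by 1.96 in WT and 1.65 in KO. H2-DMb1 and H2-DMb2 share sequence in 4.71% of the stretches of H2-DMb1. H2-Ob, a chain of H2-O, which inhibits H2-DM, rose by 1.76 in WT and 1.44 in KO, the KO value being 0.72 (adjusted p = 0.0765) without KO replicate 2 at 29 °C, while H2-DMb2, H2-Oa and H2-Eb2, each averaging under 1 CPM in every group, were called in KO and not in WT, and none of these 3 had a called interaction of genotype and temperature.

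KO and WT were then compared at each temperature. At 29 °C, 12 of the 35 tested members were higher in KO and 1 was lower, against 24.7% higher, 20% lower and 44.7% called among all genes, so the share of members called was 37.1%, near the background. The median log2 difference was 0.43 over the members and 0.04 over all genes. The class I side had 9 higher and 1 lower of 24, with a median of 0.25, and the class II side 3 higher and none lower of 11, with a median of 0.56. This class II count was 1 without WT replicate 3 at 29 °C and 5 without KO replicate 1 at room temperature. At room temperature none of the 35 was called with edgeR, where 0.053% of all genes were higher, 0.186% were lower and 0.239% were called in all. Before adjustment 3 members had a p under 0.05 there, and none was called by DESeq2. The median over the members was 0.27 and over all genes 0.01.

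Among class I partners, 4 of 5 were higher in KO at 29 °C, against 24.7% of all genes. B2m was 2.08-fold higher, a log2 difference of 1.06 ± 0.18 (adjusted p = 2.7e-04), and its lowest KO library, at 832 CPM, lay above the highest WT library, at 604 CPM. Tap2 measured 115, 90.6 and 83.2 CPM in KO and 65.8, 58.4, 50.4 and 59.1 CPM in WT, without overlap, and differed by 0.72 ± 0.13 (adjusted p = 3.9e-04). Erap1 measured 40.3, 37.4 and 30.5 CPM in KO and 23.5, 25.3, 26.4 and 24.3 CPM in WT, also without overlap, and differed by 0.54 ± 0.11 (adjusted p = 9.1e-04). Tap1 measured 53.7, 28.1 and 33.3 CPM in KO and 28, 24.7, 25.6 and 23.5 CPM in WT. Its difference of 0.6 ± 0.23 (adjusted p = 0.0468) was 0.27 (adjusted p = 0.339) without KO replicate 1.

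Of the 16 tested heavy chains, 4 were higher in KO at 29 °C and 1 was lower, against 24.7% higher and 20% lower among all genes. The share of heavy chains higher was thus near the background, and their median log2 difference was -0.15. H2-D1 differed by 0.7 ± 0.16 (adjusted p = 0.00244) and H2-T22 by 0.74 ± 0.19 (adjusted p = 0.00549), each without overlap between the genotypes. H2-K1 differed by 0.47 ± 0.15 (adjusted p = 0.0197), and 1 KO library lay among those of WT. Without KO replicate 1 its difference was 0.27 (adjusted p = 0.176), and without WT replicate 3 it was 0.43 (adjusted p = 0.0501). H2-M2, a heavy chain gene at low counts, measured 1.93, 0.977 and 1.73 CPM in KO and 0.312, 0.365, 0.173 and 0.202 CPM in WT, and differed by 2.53 ± 0.6 (adjusted p = 0.00303).

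The lower heavy chain gene was H2-K2, annotated as a transcribed pseudogene beside H2-K1. It measured 3.57, 2.55 and 4.23 CPM in KO and 9.99, 6.38, 7.19 and 5.69 CPM in WT at 29 °C, a difference of -1.08 ± 0.28 (adjusted p = 0.0049). Every KO library was below every WT library, opposite in direction to H2-K1, which is read from the same strand. The Q-region genes H2-Q4, H2-Q5, H2-Q6 and H2-Q7 had log2 differences between -0.43 and -0.13 and none was called. Nlrc5 differed by 0.43 ± 0.24 (adjusted p = 0.166), although its 3 KO libraries lay above the 4 of WT.

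Cd1d1 had the smallest adjusted p of the members in KO against WT at 29 °C. It was 2.3-fold higher in KO, a log2 difference of 1.2 ± 0.12 (adjusted p = 1.8e-06), and at room temperature the difference was 0.12 ± 0.11 (adjusted p = 0.741). Mr1 differed by -0.06 ± 0.26 at 29 °C (adjusted p = 0.88).

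Among class II chains, H2-Eb1 was 1.15 ± 0.3 higher in KO at 29 °C on the log2 scale (adjusted p = 0.0068) and H2-Aa 0.94 ± 0.3 higher (adjusted p = 0.0199), both without overlap. The low H2-Eb2 was 1.32 ± 0.49 higher (adjusted p = 0.0375) with overlap. H2-Ab1, which encodes the partner chain of H2-Aa, differed by 0.51 ± 0.3 (adjusted p = 0.19), Cd74 by 0.52 ± 0.29 (adjusted p = 0.155) and Ciita by 0.32 ± 0.28 (adjusted p = 0.372). Without KO replicate 1 the H2-Aa difference was 0.68 (adjusted p = 0.11), and without WT replicate 3 it was 0.85 (adjusted p = 0.0548). The Cd74 to class II ratio was 0.607 ± 0.0525 in KO and 0.775 ± 0.0641 in WT at 29 °C, and 0.618 ± 0.0201 in KO and 0.623 ± 0.045 in WT at room temperature (SD).

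Whether the KO difference itself differed between the temperatures was tested as an interaction. It was called for 6 of the 35 members, 4 higher and 2 lower, against 16% higher, 12.3% lower and 28.3% called among all genes, and all 6 were on the class I side. The KO difference was larger at 29 °C for Cd1d1 by 1.08 ± 0.16 (adjusted p = 2.0e-04), for B2m by 0.7 ± 0.25 (adjusted p = 0.0482), for Tap2 by 0.59 ± 0.18 (adjusted p = 0.0227) and for Erap1 by 0.56 ± 0.15 (adjusted p = 0.0105). For H2-K2 it was -1.68 ± 0.39 (adjusted p = 0.00519) and for H2-T24 -0.95 ± 0.31 (adjusted p = 0.0326). No class II member was called, H2-Eb1 at 0.91 ± 0.41 having an adjusted p of 0.117. The median interaction was nevertheless 0.31 on the class II side, against 0 on the class I side and 0.01 over all genes. It was 0.82 for class II chains and -0.31 for class I heavy chains.

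Which members were called depended on the libraries kept. Leaving out 1 library at a time gave 0 to 2 class II members called. The 2 were H2-Aa and H2-Eb1, without KO replicate 2 at room temperature. Without KO replicate 1 at 29 °C, 3 members were called, all on the class I side, and B2m was at 0.41 (adjusted p = 0.18). Without KO replicates 2 and 4 at room temperature, 6 were called, but 4 of these were Cd74, H2-Aa, H2-DMa and H2-Eb1 of the class II side and 2 were shared with the 6 above.

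Summed over genes, class I heavy chains came to 2506 ± 653 CPM in KO and 1797 ± 161 CPM in WT at 29 °C, and 1237 ± 145 CPM in KO and 1045 ± 86 CPM in WT at room temperature. Class II chains came to 513 ± 149 CPM in KO and 276 ± 45.7 CPM in WT at 29 °C, and 124 ± 54.8 CPM in KO and 105 ± 15.8 CPM in WT at room temperature (SD; n = 3, 4, 4 and 4). The class II to class I ratio was 0.212, 0.201 and 0.198 in KO and 0.139, 0.168, 0.143 and 0.162 in WT at 29 °C, and 0.092, 0.14, 0.0549 and 0.107 in KO and 0.0831, 0.127, 0.0861 and 0.108 in WT at room temperature. The ratio did not overlap between KO and WT at 29 °C, nor between temperatures within a genotype, while KO and WT overlapped at room temperature. As a sum over chosen genes it was given no test.

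H2-Q10 weighed on this ratio, because it is counted among the heavy chains. Without it, an alternative added after the data were seen, the ratio was 0.21 ± 0.0089 in KO and 0.161 ± 0.0141 in WT at 29 °C, and 0.132 ± 0.0479 in KO and 0.139 ± 0.0388 in WT at room temperature, and WT at 29 °C, at 0.147 to 0.178, fell within the range of WT at room temperature, 0.106 to 0.188. The B2m to class I ratio was 0.465 ± 0.0379 in KO and 0.318 ± 0.0425 in WT at 29 °C, and 0.263 ± 0.018 in KO and 0.242 ± 0.0293 in WT at room temperature, with no KO library at 29 °C below 0.438.

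**Figure D3:**
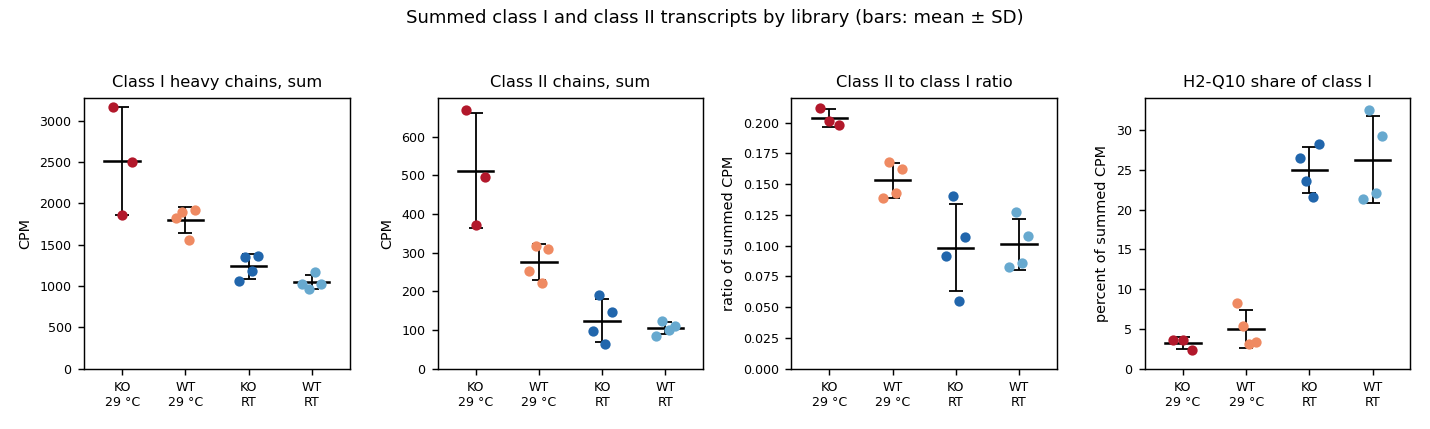
Summed class I heavy chain CPM, summed class II chain CPM, their ratio and the percent of the class I sum that is H2-Q10 (vertical axes, from 0) in each library by group (RT, room temperature), with bars for the mean ± SD. The ratio of the 3 KO libraries at 29 °C, 0.198 to 0.212, lies above that of every other library, and the H2-Q10 share lies at or below 8.25% at 29 °C and at or above 21.4% at room temperature.

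Other genes of the pathway were taken from lists chosen by their role, and their counts of calls are read against those of all genes, of which 68.8% were called for temperature in WT, 46% for temperature in KO and 44.7% in KO against WT at 29 °C. Of 6 immunoproteasome genes, which shape the peptides that class I binds, 3 were higher at 29 °C in WT, where 35.9% of all genes were higher, and 4 in KO, where 24.3% were, and none fell. Psmb8, a catalytic subunit, rose by 2.1 ± 0.33 in WT (adjusted p = 9.3e-05) and 2.13 ± 0.34 in KO (adjusted p = 3.1e-04). Between KO and WT at 29 °C, 2 of the 6 were higher, against 24.7% of all genes. These were the activator subunits, Psme1 by 0.54 ± 0.12 (adjusted p = 0.00125) and Psme2 by 0.38 ± 0.15 (adjusted p = 0.0439).

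Of 6 loading chaperones, 4 were lower at 29 °C in WT, where 32.8% of all genes were lower, and 1 in KO, where 21.7% were, and none rose. Calr, the calreticulin of the loading complex, averaged 266 ± 16.2 CPM in KO and 177 ± 16.4 CPM in WT at 29 °C, and 250 ± 34.3 CPM in KO and 249 ± 14.8 CPM in WT at room temperature. It fell with temperature by 0.49 in WT (adjusted p = 3.7e-04) and was 0.58 ± 0.11 higher in KO than in WT at 29 °C (adjusted p = 3.8e-04). Pdia3, a disulfide isomerase of the same complex, was 0.49 ± 0.09 higher in KO at 29 °C (adjusted p = 5.5e-04), and Tapbpl, the tapasin-related peptide editor, 1.01 ± 0.26 higher (adjusted p = 0.00588). In the interaction 3 of the 6 were called, all higher, against 16% higher among all genes.

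Of 8 genes of class II processing and co-stimulation, 6 were higher and 1 was lower at 29 °C in WT, where 35.9% and 32.8% of all genes were. In KO 7 were higher, where 24.3% of all genes were. Between KO and WT at 29 °C 4 were higher in KO, against 24.7% of all genes. Ctss, the cathepsin that cuts the invariant chain, measured 94.9, 61.4 and 98.4 CPM in KO and 16.6, 25.9, 23.3 and 43.2 CPM in WT at 29 °C, and 4.53, 13, 13.6 and 9.02 CPM in KO and 5.71, 4.81, 6.17 and 6.36 CPM in WT at room temperature. It was 1.64 ± 0.34 higher in KO than in WT at 29 °C (adjusted p = 0.00179). Lgmn, a lysosomal endopeptidase, was 0.91 ± 0.11 higher there (adjusted p = 6.7e-06) and had an interaction of 1.09 ± 0.14 (adjusted p = 7.8e-05).

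Of 7 factors that bind class II promoters, 4 were higher and 1 was lower at 29 °C in WT, and 2 were higher and 1 was lower in KO. Between KO and WT at 29 °C 1 was higher and 3 were lower, against 24.7% higher and 20% lower among all genes. The shares called in either direction were near those of all genes. Rfx5, Rfxap and Rfxank are subunits of the RFX complex on which CIITA assembles. Between KO and WT at 29 °C Rfx5 differed by 0.8 ± 0.13 (adjusted p = 1.7e-04), Rfxap by -0.69 ± 0.12 (adjusted p = 3.0e-04) and Rfxank by -0.42 ± 0.12 (adjusted p = 0.00893), so the subunits differed in opposite directions.

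Of 13 interferon signalling genes, 7 were higher and 2 were lower at 29 °C in WT, where 35.9% and 32.8% of all genes were. In KO 5 were higher and 1 was lower, where 24.3% and 21.7% of all genes were. Between KO and WT at 29 °C 6 were higher and none was lower, against 24.7% higher and 20% lower among all genes. The shares called in either direction were near those of all genes in each comparison. Irf1, an interferon-induced activator of class I genes, rose with temperature by 1.17 ± 0.22 in WT (adjusted p = 2.2e-04) and 0.9 ± 0.23 in KO (adjusted p = 0.00504). Ifng, the cytokine itself, measured 0.357, 0.376 and 0.381 CPM in KO and 0.139, 0.0996, 0.0692 and 0.161 CPM in WT at 29 °C, and was 1.64 ± 0.52 higher in KO (adjusted p = 0.0183). None of the 40 genes in these 5 lists was called between KO and WT at room temperature, where 0.239% of all genes were.

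Markers of cells that carry MHC molecules also differed between the groups. In KO against WT at 29 °C they did not all differ in the same direction. Summed macrophage markers ranged from 389.5 to 571 CPM in KO and from 234 to 357 CPM in WT at 29 °C, and from 93.3 to 185 CPM in KO and from 102 to 139.7 CPM in WT at room temperature. Of these 10 markers, 9 rose with temperature in WT and 10 in KO, where 35.9% and 24.3% of all genes rose. Between KO and WT at 29 °C 4 were higher and 1 was lower. Of all genes 24.7% were higher there, 20% were lower and 44.7% were called, so the macrophage share called was near the background. Dendritic cell markers summed to 41.7 to 63.4 CPM in KO and 73.1 to 135 CPM in WT at 29 °C, and to 21.6 to 34.6 CPM in KO and 26.9 to 29.4 CPM in WT at room temperature. Of these 8, 7 rose with temperature in WT and 6 in KO. Between KO and WT at 29 °C 1 was higher and 2 were lower, also near the background, with a median log2 difference of -0.03. The dendritic sum was mostly Zbtb46, a transcription factor of dendritic cells that endothelial cells also express, at 35.6 ± 6.95 CPM in KO and 79.4 ± 28.2 CPM in WT at 29 °C (SD). The 1 dendritic marker higher in KO there was the integrin gene Itgax, by 0.92 ± 0.28 (adjusted p = 0.0137).

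B cell markers summed to 3.78 to 12.2 CPM in KO and 2.14 to 5.17 CPM in WT at 29 °C, and to 1.48 to 2.4 CPM in KO and 1.45 to 2.34 CPM in WT at room temperature. Of these 5, 2 rose with temperature in WT and 4 in KO, where 35.9% and 24.3% of all genes rose. In KO against WT at 29 °C 3 were higher, against 24.7% of all genes. T and NK cell markers summed to 15.9 to 33.3 CPM in KO and 4.81 to 6.21 CPM in WT at 29 °C, and to 2.41 to 6.54 CPM in KO and 2.28 to 3.27 CPM in WT at room temperature. All 7 were higher in KO than in WT at 29 °C, against 24.7% of all genes. No immune marker was at 0 across a group. Endothelial markers, of a cell type that also carries class I, summed to 504 to 655 CPM in KO and 987 to 1474 CPM in WT at 29 °C, and to 401 to 513 CPM in KO and 466 to 569 CPM in WT at room temperature. All 6 endothelial markers were lower in KO at 29 °C, against 20% of all genes. The part of these cells in the MHC differences was not tested.

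**Figure D4:**
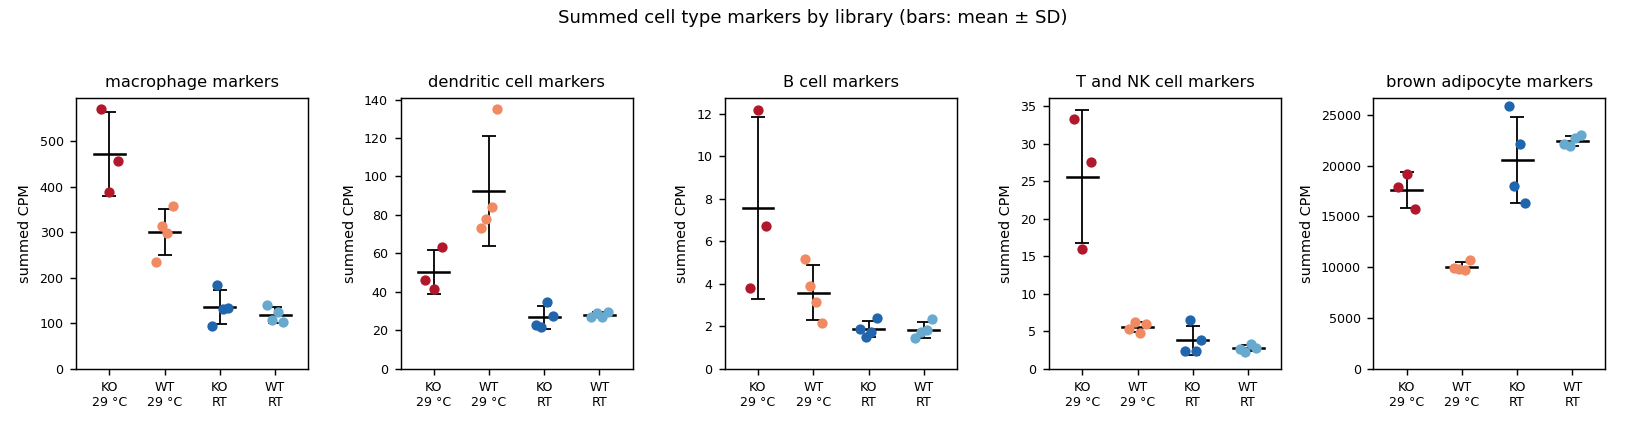
Summed CPM of macrophage, dendritic cell, B cell, T and NK cell and brown adipocyte markers (vertical axes, from 0) in each library by group (RT, room temperature), with bars for the mean ± SD. The T and NK cell sum is 15.9 to 33.3 CPM in KO at 29 °C and at most 6.54 CPM in all other libraries, and the lower dendritic cell sum in KO than in WT at 29 °C is mostly Zbtb46, at 35.6 CPM in KO and 79.4 CPM in WT.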

How the data were processed

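Brown fat RNA of 15 libraries was read as 150 bp paired ends on a BGIseq500, mapped with STAR 2.7.10a on mm10 and counted by RSEM 1.2.28, per the submitters' processing notes and the labels' protocols, which also name DESeq2. The deposited table holds the authors' RSEM expected counts per gene symbol, not normalized; 7.26% of its entries have decimals, and they were rounded. A spreadsheet had turned 24 symbols into dates.

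Genes were kept by filterByExpr by group (minimum count 10). Counts were scaled by TMM, and 1 model of the 4 groups, with 11 residual degrees of freedom, was fitted in edgeR 4.0.16 under R 4.3.3 (quasi-likelihood, robust) to give 5 contrasts, each adjusted over all genes tested; SEs were the fold change over the square root of F. The fit was tested on simulated data. The members, lists and naming rule were chosen with earlier results of these data known. The rule gives library values for the most abundant members of each side and a fixed few, and other members by counts and examples. Values of some listed genes are not reported here. H2 gene models, lengths and shared 150-base stretches came from GENCODE on GRCm38, promoters from RefSeq. Chi-square over genes, run on pairs of libraries of the same group, found no library deposited more than once within a group. Alternatives included DESeq2 1.42.0, other scaling and filters, and leaving out libraries.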

Additional observations from a re-analysis of the deposited data

Results flagged for a closer look

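The interaction term of the edgeR fit was called for 6 of the 35 tested members. This was 17.1% of the members, below the 28.3% called among all genes. The KO difference was larger at 29 °C for Cd1d1 by 1.08, B2m by 0.7, Tap2 by 0.59 and Erap1 by 0.56 on the log2 scale. It was more negative at 29 °C for H2-K2, at -1.68, and for H2-T24, at -0.95. Of the 6, only Cd1d1 and H2-K2 were called under every alternative. H2-T24 measured 4.3, 6.57 and 3.78 CPM in KO and 7.35, 7.71, 4.29 and 6.34 CPM in WT at 29 °C, and 5.56, 6.49, 9.31 and 6.42 CPM in KO and 5.5, 4.47, 4.79 and 4.2 CPM in WT at room temperature.

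In 4 of 105 combinations of a member and a group of 4 libraries, 1 library stood far from the other 3, and chance flags about 1 in 20 such groups. All 4 were in KO at room temperature. H2-Eb2 was at 0.0862 CPM in replicate 1, against 0.121 to 0.126 CPM in the others. H2-Q7 was at 6.51 CPM in replicate 1, against 13.1 to 14.2 CPM. H2-M2 was at 0.379 CPM in replicate 2, against 0 to 0.0403 CPM. H2-T23 was at 39.6 CPM in replicate 3, against 18.4 to 21.5 CPM.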

How the results depend on the processing

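Leaving out each library in turn gave 9 to 15 members called in KO against WT at 29 °C, 0 to 0 at room temperature, 28 to 29 for 29 °C against room temperature in WT, 30 to 32 in KO and 3 to 8 in the interaction. The low of 9 came without WT replicate 3 at 29 °C, the low of 3 without KO replicate 1 at 29 °C and the high of 8 without KO replicate 2 at room temperature. The class II side held 1 to 5 of the calls in KO against WT at 29 °C. Without the 3 libraries with muscle transcripts, 25 members were called for temperature in KO. The log2 class II to class I ratio differed between KO and WT by 0.37 to 0.46 at 29 °C and by -0.29 to 0.16 at room temperature, and between temperatures by 0.53 to 0.73 in WT and 0.87 to 1.32 in KO. The KO difference of 0.42 at 29 °C was 0.3 with only H2-K1 and H2-D1 as class I, 0.26 with Cd74, H2-DM and H2-O genes added to class II and 0.52 without the 3 libraries with muscle transcripts. The temperature difference of 0.62 in WT was 0.36 with only H2-K1 and H2-D1 and 0.25 without H2-Q10; the cause was not tested.

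No call changed direction under any alternative. A call counted as lost only under alternatives in which the gene was tested, and the filter of at least 1 CPM in 4 libraries tested 29 members. Counted so, 8 of 13 calls in KO against WT at 29 °C and 27 of 28 for temperature in WT were never lost. Nor were 25 of 32 for temperature in KO and 2 of 6 in the interaction (Cd1d1 and H2-K2). Tap1 in KO against WT at 29 °C was lost in 12 settings, H2-Eb2 in 10 and the B2m interaction in 15. Of 21 same-numbered pairs of libraries, 4 had deviations from their group means that correlated above 0.1. For KO and WT at 29 °C the correlations were 0.33, 0.191 and -0.276 for replicates 1, 2 and 3. Pairs with different numbers were not compared, so this check cannot tell whether the numbers pair the samples. With a replicate block the counts were 14, 0, 28, 31 and 5, and 5 class II members were called in KO against WT at 29 °C in place of 3. With 3 or 4 libraries a group, a difference that was not called is not shown to be absent.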
